A study of Mus musculus with 12 samples.

Results

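TGF-beta and BMP signaling genes were examined in brain endothelial cells of mouse embryos with 3 genotypes of Gpr124, a gene that is listed under the symbol Adgra2. The 42 genes were chosen by name, as ligands, receptors, coreceptors, antagonists, latent-complex proteins, SMADs and targets of the pathway, out of 49315 genes with counts. RNA-seq was available for 12 embryos at E15.5, namely 4 wild type, 4 Gpr124ΔC/ΔC and 4 Gpr124-/-. Each library held forebrain cells that were sorted as positive for CD31 and negative for CD140b, CD45 and the dye 7AAD. The Gpr124ΔC allele ends the receptor shortly after its last transmembrane domain, with a V5 tag and a stop codon placed there by CRISPR/Cas9 in C57Bl/6 zygotes, and founders were crossed to B6DF1 mice. The Gpr124-/- embryos carried a lacZ knockout allele. Both are germline alleles, so every cell of an embryo carried them, and the homozygotes of the 2 alleles came from separate intercrosses of heterozygous parents.

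Ligands of the TGF-beta family bind type I and type II receptors, which are kinases of the cell membrane. TGF-betas and activins signal mainly through SMAD2 and SMAD3, and BMPs through SMAD1, SMAD5 and SMAD9, each together with SMAD4, while SMAD6 and SMAD7 are inhibitors that the pathway itself induces. Endothelial cells also use the type I receptor ALK1, encoded by Acvrl1, with the coreceptor endoglin, encoded by Eng, and mutations of either gene cause hereditary hemorrhagic telangiectasia. TGF-betas are secreted in latent complexes that are bound by proteins of the LTBP group and are activated in the matrix.

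Library depth ranged from 13877572 to 22551163 reads counted on genes. Levels below are TPM, in which the reads of a gene are divided by its length, so that different genes can be set side by side. Adgra2 was listed at 28.3 to 51.1 TPM in wild type, 34.1 to 63.4 TPM in Gpr124ΔC/ΔC and 4.03 to 6.29 TPM in Gpr124-/-. All 10 endothelial markers were detected, with a summed TPM of 12084 to 15774 in wild type, of 7419 to 12547 in Gpr124ΔC/ΔC and of 6611 to 7919 in Gpr124-/-. Against wild type, 3 of the 10 rose in Gpr124-/-, Cdh5, Emcn and Pecam1, and 3 fell, Cldn5, Erg and Tek, with a median log2 fold change of -0.11 and the largest change in Cldn5, at 0.23 of wild type. Platelet and erythroid markers stood out in Gpr124-/-, where 8 of 10 and 6 of 10 rose against wild type (adjusted p under 0.05, edgeR). Summed platelet markers were at 321 to 612 TPM in wild type and 595 to 1907 TPM in Gpr124-/-, and summed erythroid markers were at 7073 to 11821 TPM and 17942 to 54426 TPM. In bulk RNA, fewer or more cells of a type cannot be told apart from less or more RNA per cell. Embryo labels began with the letters J, K, L or M, whose meaning is not given in the labels. Letter J covered 2 wild-type and 2 Gpr124ΔC/ΔC embryos, and letter L covered 1 and 2 of these. Of the Gpr124-/- embryos, 3 had letter M, and KE4 shared letter K with the wild-type embryo KE8.

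In the forebrain endothelium of wild-type embryos, the most abundant genes of the pathway were the targets Id1, Id2 and Id3 and the receptor, coreceptor or decoy genes Eng, Acvrl1, Tgfbr2 and Bambi, while some other receptor genes were as low as its BMP ligand genes. Of the 42 genes, 7 had a mean above 100 TPM, 16 lay between 10 and 100 TPM, 9 between 1 and 10 TPM and 10 below 1 TPM. Id3, a transcriptional inhibitor and direct BMP target, led with 984 ± 193 TPM (SD, n = 4), and its lowest library, at 831 TPM, lay above the highest of the next gene, Id1, at 721 TPM. Id1 (498 TPM) and Eng (445 TPM) overlapped each other, and every Eng library exceeded every library of the genes that followed. Acvrl1 (210 TPM), Tgfbr2 (179 TPM), the decoy receptor gene Bambi (172 TPM) and Id2 (138 TPM) overlapped in the ranges of neighboring genes. Among ligands, Tgfb1 (36.6 ± 7.24 TPM) and Tgfb2 (30.0 ± 3.18 TPM) were the most abundant and overlapped. The BMP ligands were lower, with Bmp2 at 4.99 ± 0.357 TPM, Bmp4 at 3.01 ± 1.31 TPM and Bmp6 at 0.335 ± 0.244 TPM. The secreted BMP antagonists Nog, Fst, Grem1 and Bmper were all below 1 TPM on average in every genotype. Receptor levels were uneven too, since Bmpr2 was at 19.4 ± 2.88 TPM while the type I receptors Bmpr1a and Bmpr1b were at 1.06 ± 0.247 TPM and 0.181 ± 0.145 TPM.

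**Figure D1:**
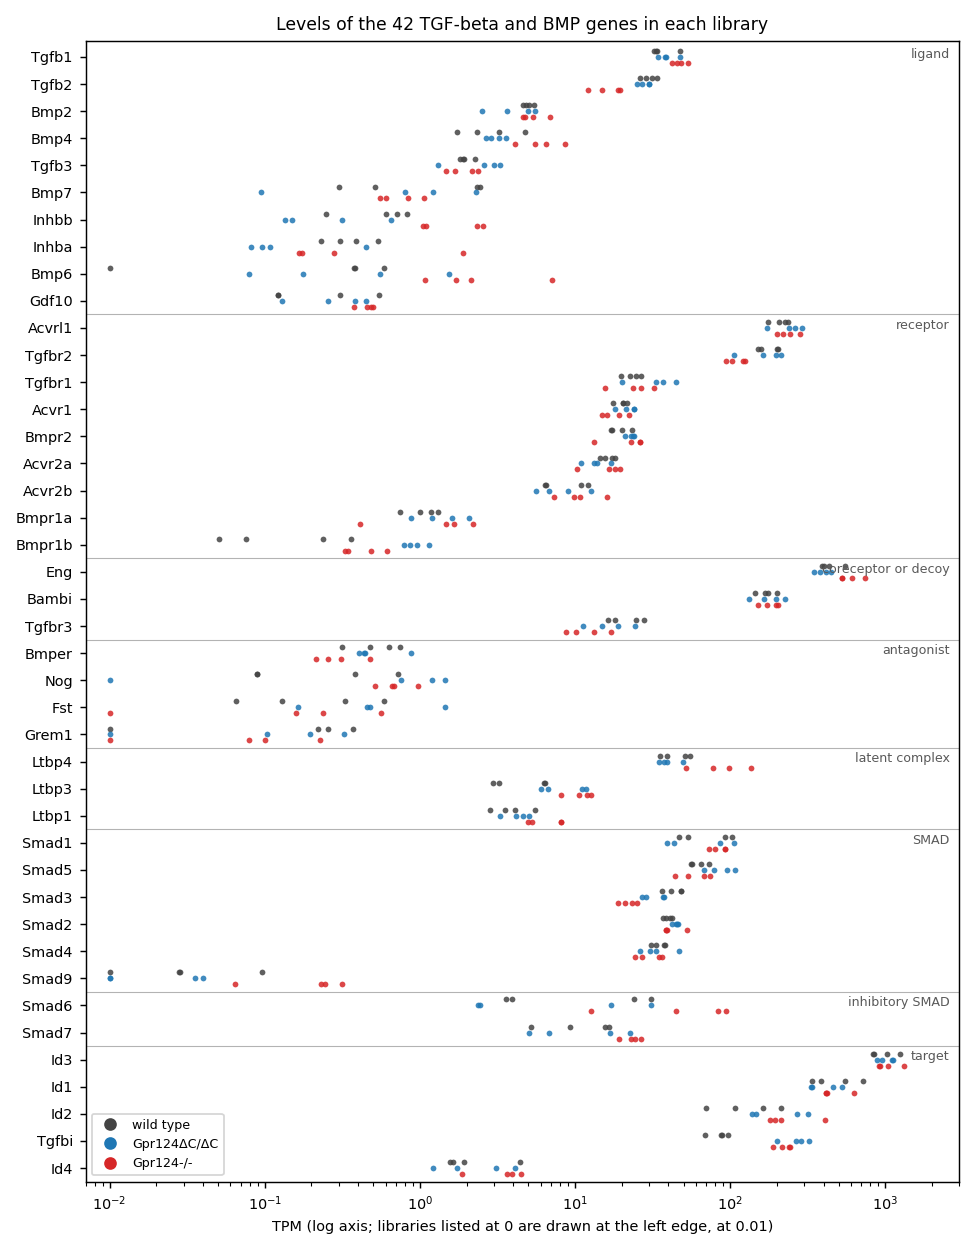
TPM of each of the 42 genes in each of the 12 libraries, on a log axis, with genes ordered by role and then by wild-type level and with 1 color for each genotype. Levels ran from Id3, at 831 to 1241 TPM in wild type, down to Smad9, at 0 to 0.0956 TPM.

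Counts were then compared between genotypes with edgeR's quasi-likelihood test over 16637 genes, of which 36 were among the 42. In Gpr124-/- against wild type, 4 of these 36 genes fell, namely Tgfb2, Tgfbr2, Tgfbr3 and Smad3, and 5 rose, namely Bmp4, Bmp6, Ltbp3, Ltbp4 and Tgfbi (adjusted p under 0.05). The 4 that fell encode the ligand TGF-beta 2, the type II receptor of TGF-beta, the coreceptor betaglycan and SMAD3, which carries signals of TGF-betas and activins. Tgfb1, Tgfb3, Tgfbr1, Smad2 and Smad4 of the same branch did not pass the test. The 5 that rose include a pair of BMP ligands, a pair of latent TGF-beta binding proteins and the matrix protein TGFBI. Over all tested genes, 9.32% fell, 10.5% rose and 19.8% did either, so the 9 of 36 were close to the background. A further threshold, more than 1 log2 unit of change in either direction, was also met by 5 of the 36, Bmp4, Bmp6, Ltbp3, Smad3 and Tgfbi, and by 9.88% of all tested genes. The median log2 fold change was 0.13 over the 36 genes and -0.01 over all tested genes. TPM of the 2 genotypes did not overlap for 8 of the 36 genes, against 20.3% of all tested genes, with Tgfb2, Tgfbr2 and Smad3 below wild type and Bmp6, Inhbb, Ltbp3, Smad7 and Tgfbi above it. By exact permutation of TPM, two-sided, each of these 8 reached the smallest p that the 70 orders of 4 libraries against 4 allow, and this gave an adjusted p of 0.141 over all tested genes. Every gene without overlap gets this p, so the test adds nothing to the lack of overlap. No gene could reach a lower adjusted p in it.

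Tgfb2 (ENSMUSG00000039239, chr1:186622792-186705989, GRCm38, minus strand) was at 28.8, 31.2, 26.3 and 33.7 TPM in the wild-type embryos JE1, JE6, KE8 and LE6. It was at 25.0, 29.8, 29.8 and 26.8 TPM in the Gpr124ΔC/ΔC embryos JE3, JE4, LE2 and LE5, and at 19.5, 14.9, 19.0 and 12.1 TPM in the Gpr124-/- embryos KE4, ME1, ME4 and ME5. All 4 Gpr124-/- libraries were below all 8 others, which overlapped one another. Against wild type, Gpr124-/- gave a log2 fold change of -0.93 (SE 0.14, adjusted p = 0.000353, edgeR), a level of 0.525 of wild type. Against wild type, Gpr124ΔC/ΔC gave -0.19 (SE 0.14, adjusted p = 0.631, edgeR).

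Tgfbr2 (ENSMUSG00000032440, chr9:116084293-116175360, minus strand), which binds TGF-beta and starts receptor signaling, was the fifth most abundant of the 42 genes in wild type. In the same order of embryos, it was at 159, 152, 201 and 203 TPM in wild type, at 106, 162, 212 and 198 TPM in Gpr124ΔC/ΔC and at 124, 93.3, 121 and 102 TPM in Gpr124-/-. The Gpr124-/- libraries lay below every wild-type library, and 1 Gpr124ΔC/ΔC library, JE3, lay among them. Tgfbr2 fell in Gpr124-/- by 0.74 on the log2 scale (SE 0.14, adjusted p = 0.00215, edgeR). It did not pass by limma on log2(TPM + 1) with no filter (adjusted p = 0.0601). Its coreceptor gene Tgfbr3 (ENSMUSG00000029287, chr5:107106570-107289629, minus strand) was at 16.4, 18.2, 27.8 and 24.7 TPM in wild type, at 11.2, 15, 24.3 and 19.0 TPM in Gpr124ΔC/ΔC and at 17.0, 8.68, 13.3 and 10.2 TPM in Gpr124-/-. Here KE4 overlapped wild type and the M embryos did not. Tgfbr3 had a log2 fold change of -0.87 in Gpr124-/- (SE 0.22, adjusted p = 0.0136, edgeR), and it did not pass in the 3 limma fits on TPM (-0.83 to -0.79, adjusted p = 0.0583 to 0.104).

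Smad3 (ENSMUSG00000032402, chr9:63646767-63757994, minus strand) was highest in wild type and lowest in Gpr124-/-, with an overlap only between wild type and Gpr124ΔC/ΔC. Its TPM was 48.5, 48.3, 36.3 and 41.8 in wild type, 27.0, 37.5, 28.8 and 37.1 in Gpr124ΔC/ΔC and 24.9, 18.9, 21.1 and 23.3 in Gpr124-/-. Its log2 fold change was -1.04 in Gpr124-/- (SE 0.14, adjusted p = 0.00021) and -0.52 in Gpr124ΔC/ΔC (SE 0.14, adjusted p = 0.0655), both against wild type by edgeR. The value of Gpr124ΔC/ΔC passed without the wild-type embryo KE8 (-0.61, adjusted p = 0.0349, edgeR), with the embryo letter in the model (-0.57, adjusted p = 0.0137, edgeR) and with DESeq2 (-0.52, adjusted p = 0.0247). Smad2, the other SMAD of TGF-beta signaling, was at 36.9 to 42.2 TPM in wild type and 38.4 to 52.8 TPM in Gpr124-/-, with a log2 fold change of 0.04 (SE 0.12, adjusted p = 0.856, edgeR).

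When the embryo letter was added to the model, the Gpr124-/- effect rested on KE4 and KE8 alone, 1 library against 1. Its p-values, here and for the genes below, take the spread from the other letters and assume that these libraries vary alike. Of the 4 genes that fell, Tgfbr2 had a log2 fold change of -0.75 in this fit (adjusted p = 0.045, edgeR). Tgfb2 (-0.48, adjusted p = 0.357), Tgfbr3 (-0.75, adjusted p = 0.131) and Smad3 (-0.59, adjusted p = 0.189) were not past the threshold (edgeR). KE4 was lower than KE8 in TPM for all 4, at 0.74 of its level for Tgfb2, 0.616 for Tgfbr2, 0.613 for Tgfbr3 and 0.685 for Smad3.

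Promoter sequence is shown for the 3 genes whose Gpr124-/- libraries lay below all wild-type libraries and passed the test, and for Tgfbi, which rose in both mutants. Each line gives the 250 bases before the RefSeq transcription start on GRCm38.p6, 5′ to 3′ on the strand of the gene, at chr1:186705990-186706239 for Tgfb2, chr9:116175364-116175613 for Tgfbr2, chr9:63757995-63758244 for Smad3 and chr13:56609336-56609585 for Tgfbi. Capitals mark the SMAD-binding letters CAGAC or their reverse GTCTG, and the GC-rich letters GGCGCC that BMP-activated SMADs can bind.
Tgfb2: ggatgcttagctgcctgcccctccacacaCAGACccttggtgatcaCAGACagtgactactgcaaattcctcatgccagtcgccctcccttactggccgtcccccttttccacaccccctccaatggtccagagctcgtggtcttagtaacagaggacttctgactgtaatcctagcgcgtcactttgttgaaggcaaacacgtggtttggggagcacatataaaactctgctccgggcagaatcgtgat
Tgfbr2: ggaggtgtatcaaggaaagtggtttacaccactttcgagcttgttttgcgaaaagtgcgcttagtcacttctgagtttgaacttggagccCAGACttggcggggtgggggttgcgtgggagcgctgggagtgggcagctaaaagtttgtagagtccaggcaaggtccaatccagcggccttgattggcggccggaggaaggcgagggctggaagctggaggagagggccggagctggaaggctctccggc
Smad3: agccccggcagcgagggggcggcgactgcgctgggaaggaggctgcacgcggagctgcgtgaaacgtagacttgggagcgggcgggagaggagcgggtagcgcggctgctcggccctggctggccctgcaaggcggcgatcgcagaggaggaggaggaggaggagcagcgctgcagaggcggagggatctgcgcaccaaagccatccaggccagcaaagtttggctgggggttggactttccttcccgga
Tgfbi: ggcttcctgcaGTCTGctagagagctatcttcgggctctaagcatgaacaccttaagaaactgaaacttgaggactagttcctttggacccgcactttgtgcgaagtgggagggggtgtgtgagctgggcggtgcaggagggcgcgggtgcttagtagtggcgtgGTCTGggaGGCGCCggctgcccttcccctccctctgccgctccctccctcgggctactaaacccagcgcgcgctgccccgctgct
The Tgfb2 window held CAGAC or its reverse 2 times, that of Tgfbr2 1 time and that of Tgfbi 2 times, and that of Smad3 held neither. GGCGCC was found 1 time, in Tgfbi. CTTTGA and its reverse TCAAAG, letters that TCF and LEF factors of WNT signaling bind, were in none of the 4 windows. Windows were given for 30 of the 42 genes, 38 windows in all. CAGAC or its reverse was in 17 of the 38 and in 42.2% of all 32851 windows of this length, GGCGCC in 11 and in 9.59%, and CTTTGA or its reverse in 2 and in 13.8%. The 38 windows had a median GC content of 65.4%, against 52.4% over all windows, and GGCGCC consists of G and C alone.

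Tgfbi (ENSMUSG00000035493, chr13:56609603-56639339, plus strand), which encodes a secreted matrix protein first found as a gene that TGF-beta induces, had the lowest adjusted p of the 36 genes in each comparison with wild type, and the same direction in both. It was at 88.5, 87.2, 69.0 and 97.4 TPM in wild type, at 201, 265, 321 and 287 TPM in Gpr124ΔC/ΔC and at 244, 190, 238 and 217 TPM in Gpr124-/-. Every mutant library was above every wild-type library, and the mutants overlapped. The rise was 2.93-fold in Gpr124ΔC/ΔC (log2 fold change 1.55, SE 0.12, adjusted p = 2.14e-05) and 2.51-fold in Gpr124-/- (1.33, SE 0.12, adjusted p = 7.19e-06), by edgeR with the same 4 wild-type libraries in both. Between the mutants the log2 fold change was -0.22 (adjusted p = 0.292, edgeR), with an interval of 2 SE from -0.46 to 0.01. Within letters, Gpr124ΔC/ΔC was at 2.65 times wild type among the J embryos and 3.12 times among the L embryos, and KE4 was at 3.54 times KE8. The next gene among the 42 on that chromosome, Smad5, begins 63670 bases downstream and differed from wild type in neither mutant by the test.

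Of the 3 latent-complex genes, Ltbp3 and Ltbp4 rose in Gpr124-/- and Ltbp1 did not pass the test. Ltbp3 (ENSMUSG00000024940, chr19:5740904-5758532, plus strand) was at 6.41, 6.30, 3.22 and 2.96 TPM in wild type, at 11.1, 11.7, 6.67 and 6 TPM in Gpr124ΔC/ΔC and at 10.6, 8.09, 12.6 and 11.9 TPM in Gpr124-/-. In wild type and Gpr124ΔC/ΔC, the J embryos were above the other embryos of their genotype. Ltbp3 rose in Gpr124-/- (log2 fold change 1.13, SE 0.33, adjusted p = 0.0296, edgeR), and Gpr124ΔC/ΔC gave 0.83 (SE 0.33, adjusted p = 0.241, edgeR). With the embryo letter in the model both were past the threshold, at 1.68 (adjusted p = 0.00506) and 0.86 (adjusted p = 0.00588, edgeR). Without KE8, LE6, ME4 or ME5 the Gpr124-/- call was lost, at log2 fold changes of 0.94 to 1.07 (adjusted p = 0.0739 to 0.0854, edgeR).

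Ltbp4 (ENSMUSG00000040488, chr7:27305136-27337692, minus strand) was at 50.9, 55.2, 35.5 and 39.3 TPM in wild type, at 39.4, 49.3, 34.7 and 37.4 TPM in Gpr124ΔC/ΔC and at 51.8, 77.4, 98.3 and 136 TPM in Gpr124-/-. KE4 lay within the wild-type range and the 3 M embryos above it. The log2 fold change in Gpr124-/- was 0.96 (SE 0.27, adjusted p = 0.0252, edgeR), and it was 0.50 (adjusted p = 0.447) with the embryo letter in the model. Leaving out KE8, LE6, ME4 or ME5 ended this call too, at 0.69 to 0.94 (adjusted p = 0.0568 to 0.0872, edgeR). Ltbp1 had the same sign but did not pass, with 2.85 to 5.52 TPM in wild type, 4.97 to 8.16 TPM in Gpr124-/- and a log2 fold change of 0.68 (SE 0.24, adjusted p = 0.0657, edgeR). It passed with DESeq2 (0.69, adjusted p = 0.0439) and without JE1 or KE4 (0.81 to 0.86, adjusted p = 0.0311 to 0.034, edgeR).

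Both BMP ligands that rose were of low abundance. Bmp4 (ENSMUSG00000021835, chr14:46383520-46390669, minus strand) was at 1.73, 2.34, 4.74 and 3.21 TPM in wild type, at 3.58, 2.88, 3.22 and 2.66 TPM in Gpr124ΔC/ΔC and at 4.12, 5.48, 6.46 and 8.62 TPM in Gpr124-/-. KE4 was below KE8, the highest wild-type library, and the M embryos were above all wild-type libraries. Bmp4 had a log2 fold change of 1.02 in Gpr124-/- (SE 0.31, adjusted p = 0.0373, edgeR), and with the embryo letter in the model the sign turned, to -0.25 (adjusted p = 0.899). The call was also lost without any 1 of JE1, JE6, LE6, LE2, ME1, ME4 and ME5, at 0.81 to 1.05 (adjusted p = 0.0502 to 0.106, edgeR).

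Bmp6 (ENSMUSG00000039004, chr13:38345716-38499728, plus strand), which endothelial cells of the liver release to control iron uptake, had 11, 6, 6 and 0 reads in wild type, 23, 2, 6 and 1 reads in Gpr124ΔC/ΔC and 15, 22, 37 and 104 reads in Gpr124-/-. The highest count was that of ME5, and wild type and Gpr124-/- did not overlap. In the GENCODE vM21 annotation, 224 of its exon bases are shared with Txndc5 on the opposite strand, and whether counting used strand is not given in the sources used here. Bmp6 had a log2 fold change of 3.08 in Gpr124-/- (SE 0.89, adjusted p = 0.028, edgeR). It lost its call without JE6, KE8, LE6 or ME5, at 2.19 to 3.17 (adjusted p = 0.0582 to 0.117), and with the embryo letter in the model, at 1.45 (adjusted p = 0.741, edgeR).

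The summed platelet markers of KE4, 595 TPM, were within the wild-type range of 321 to 612 TPM, whereas its erythroid markers, 25198 TPM, were above the wild-type range. In KE4, the levels of Tgfb2, Tgfbr2, Smad3, Tgfbi, Ltbp3 and Bmp6 were outside the wild-type range in the direction of the call, and those of Tgfbr3, Ltbp4 and Bmp4 were within it. Summed neural progenitor markers were at 593 to 645 TPM in wild type and 910 to 1083 TPM in Gpr124-/-, and of the 9 tested 1 rose, Vim, which many cell types express, and 2 fell, Hopx and Slc1a3. Among 10 mural markers, 4 of them with a positive log2 fold change, Abcc9 rose (log2 fold change 2.66, adjusted p = 0.000327, edgeR) and Rgs5 fell (-1.47, adjusted p = 0.0186, edgeR). Among 10 neuronal markers, 6 of them positive, Stmn2 rose (1.25, adjusted p = 0.00109, edgeR). Of 6 fibroblast markers tested, all with a negative log2 fold change, Pdgfra fell (-2.55, adjusted p = 0.00835, edgeR). The part of RNA from these other cell types in the differences was not tested.

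**Figure D2:**
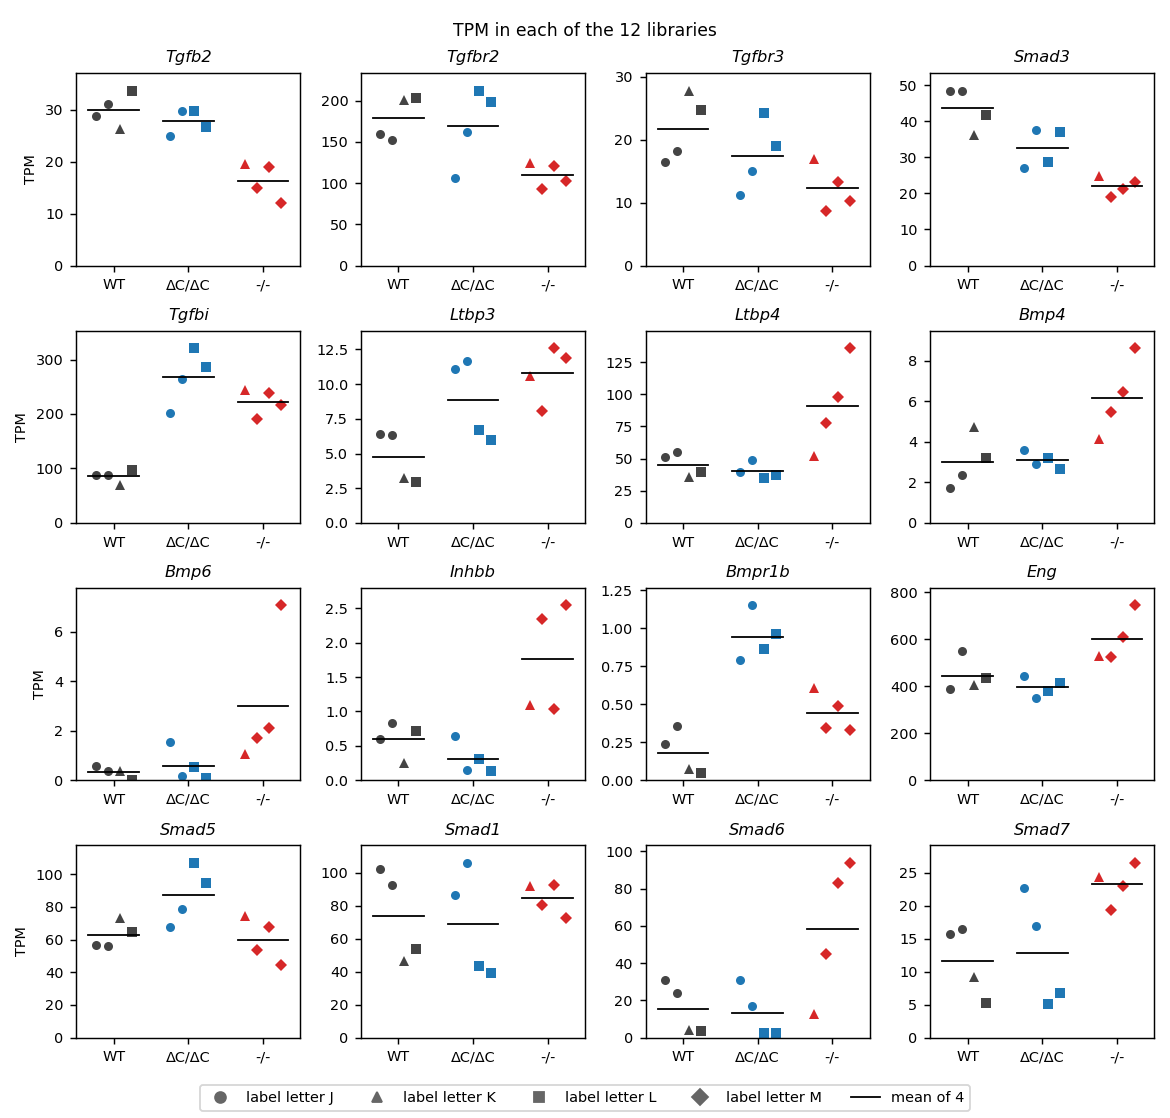
TPM of 16 genes in each of the 12 libraries, on linear axes that start at 0, with a horizontal line at the mean of each genotype and a marker shape for the embryo letter. Gpr124-/- libraries lie below all others for Tgfb2 and Smad3, all mutant libraries lie above wild type for Tgfbi, and in Smad1, Smad6 and Smad7 the J embryos lie above the K and L embryos of wild type and Gpr124ΔC/ΔC.

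In Gpr124ΔC/ΔC against wild type, 2 of the 36 genes rose, Tgfbi and Bmpr1b, and 0 fell (adjusted p under 0.05, edgeR). Of all tested genes 1.85% rose, 2.24% fell and 4.09% did either, and the 2 genes were also past the fold threshold, as were 1.92% of all tested genes. At an unadjusted p under 0.05, 5 of the 36 were higher, Bmpr1b, Ltbp3, Smad5, Tgfbi and Tgfbr1, against 7.25% of all tested genes, and 1 was lower, Smad3, against 7.17%. DESeq2 called Smad3 as lower too, while limma on log2(TPM + 1) called 0 genes as lower and Tgfbi as higher. Bmpr1b, with a mean of 0.521 TPM over all libraries, was filtered out before that limma fit and was not tested in it. Letters J and L hold both genotypes, and with the embryo letter in the model 4 genes rose, Bmpr1b, Tgfbi, Id2 (log2 fold change 1.02, adjusted p = 0.000102) and Ltbp3 (0.86, adjusted p = 0.00588), and 1 fell, Smad3 (-0.57, adjusted p = 0.0137, edgeR). The shares above are from the fit without the letter. The share of all tested genes called with the letter in the model is not given here, so these counts have no background. Bmpr1b (ENSMUSG00000052430, chr3:141837136-142169425, minus strand), a type I BMP receptor gene, had 11, 14, 3 and 2 reads in wild type, 29, 32, 23 and 30 reads in Gpr124ΔC/ΔC and 21, 11, 21 and 12 reads in Gpr124-/-. Every Gpr124ΔC/ΔC library had more reads than any wild-type library, at under 35 reads each. The log2 fold change in Gpr124ΔC/ΔC was 2.25 (SE 0.47, adjusted p = 0.0157), or 2.15 without JE4 (adjusted p = 0.0541), and it was 1.20 in Gpr124-/- (SE 0.48, adjusted p = 0.108, edgeR). The median log2 fold change in Gpr124ΔC/ΔC was -0.02 over the 36 genes and 0.01 over all. TPM did not overlap with wild type for 3 of the 36, Bmpr1b, Smad2 and Tgfbi, against 8.85% of all tested genes. Of the markers of other cell types, summed platelet markers were at 427 to 570 TPM in Gpr124ΔC/ΔC, within the wild-type range. Summed erythroid markers, at 5500 to 9936 TPM, overlapped those of wild type. The 10 mural markers, 2 of them positive, had a median log2 fold change of -0.46. The 6 fibroblast markers tested were all negative, with a median of -0.55. Neuronal and macrophage markers had medians of 0.25 and 0.23. No marker of these 4 lists passed the test (edgeR). Summed neural progenitor markers were at 733 to 858 TPM, above all wild-type libraries, with Vim higher (log2 fold change 0.37, adjusted p = 0.0425) and Hopx (-1.92, adjusted p = 0.0011) and Slc1a3 (-1.95, adjusted p = 0.000536, edgeR) lower. Their part in the differences of Gpr124ΔC/ΔC was not tested.

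The mutants were also compared with each other. In Gpr124-/- against Gpr124ΔC/ΔC, 3 of the 36 genes were higher, Inhbb, Eng and Ltbp4, and 4 were lower, Tgfb2, Tgfbr2, Smad3 and Smad5 (adjusted p under 0.05, edgeR). These shares stand beside 4.93% of all tested genes that were higher, 3.89% that were lower and 8.82% that were either, and 2 of the 36, Inhbb and Ltbp4, were past both thresholds, against 4.6% of all. In the same comparison 8 of 10 erythroid and 7 of 10 platelet markers were higher (adjusted p under 0.05, edgeR). Of 10 mural markers Abcc9 and Kcnj8 were higher, and of 10 neuronal markers Stmn2 was. Of 9 progenitor markers tested Vim was higher and Hopx lower, and of 4 macrophage markers tested Mrc1 was lower (adjusted p under 0.05, edgeR). The log2 fold change was positive for 7 mural, 4 neuronal, 7 progenitor and 1 macrophage markers. The part of these markers in the differences was not tested. The largest difference was that of Inhbb (ENSMUSG00000037035, chr1:119415465-119422248, minus strand), the beta B subunit of activin and inhibin, with 17, 3, 6 and 3 reads in Gpr124ΔC/ΔC, 27, 53, 32 and 66 reads in Gpr124-/- and 20, 23, 7 and 20 reads in wild type. The log2 fold change between the mutants was 2.43 (SE 0.57, adjusted p = 0.0195, edgeR), and 1.5 for Gpr124-/- against wild type (SE 0.52, adjusted p = 0.0623, edgeR). The latter passed with DESeq2 (1.52, adjusted p = 0.0345), with only these 2 genotypes in the fit and without JE3 or KE4 (1.5 to 1.69, adjusted p = 0.0308 to 0.0492, edgeR). Without JE4, LE2, LE5, ME1 or ME5 the difference between the mutants was 2.16 to 2.38 (adjusted p = 0.0566 to 0.0622, edgeR).

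Eng (ENSMUSG00000026814, chr2:32646595-32682669, plus strand) was at 389, 552, 405 and 434 TPM in wild type, at 444, 349, 378 and 413 TPM in Gpr124ΔC/ΔC and at 529, 523, 609 and 744 TPM in Gpr124-/-. The mutants did not overlap, and JE6 of wild type reached into the Gpr124-/- range. Its log2 fold change was 0.63 between the mutants (SE 0.18, adjusted p = 0.0476, edgeR) and 0.38 for Gpr124-/- against wild type (SE 0.18, adjusted p = 0.17, edgeR). The call between the mutants was lost without any 1 of 9 libraries, all but JE6, JE3 and KE4 (0.50 to 0.67, adjusted p = 0.0541 to 0.15, edgeR), and the comparison with wild type passed without JE6 (0.56, adjusted p = 0.0367, edgeR).

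Smad5 (ENSMUSG00000021540, chr13:56703010-56742377, plus strand), one of the BMP SMADs, was at 56.4, 56.2, 73.4 and 64.6 TPM in wild type, at 67.5, 78.9, 107 and 94.7 TPM in Gpr124ΔC/ΔC and at 74.3, 53.6, 67.7 and 44.3 TPM in Gpr124-/-. Gpr124ΔC/ΔC held the 3 highest libraries and overlapped both other genotypes. The log2 fold change of Gpr124-/- against Gpr124ΔC/ΔC was -0.50 (SE 0.14, adjusted p = 0.0418), and 9 of the 12 libraries, all but KE8, JE3 and KE4, could not be left out without losing the call (-0.54 to -0.38, adjusted p = 0.0508 to 0.121, edgeR). For Tgfb2 the difference between the mutants was -0.74 (SE 0.14, adjusted p = 0.00547, edgeR), which held without any 1 library. For Tgfbr2 it was -0.57 (adjusted p = 0.0238), and -0.54 to -0.48 without LE2, LE5, ME1 or ME5 (adjusted p = 0.0583 to 0.0789, edgeR). For Smad3 it was -0.52 (adjusted p = 0.0385), and -0.56 to -0.46 without JE3, JE4, LE5, ME1, ME4 or ME5 (adjusted p = 0.0518 to 0.113, edgeR). For Ltbp4 it was 1.22 (SE 0.27, adjusted p = 0.016), and 0.94 to 1.16 without LE2, LE5 or ME5 (adjusted p = 0.0514 to 0.0524, edgeR). The mutants share no letter, so with the embryo letter in the model they are linked only through wild type, and none of these 7 differences was past the threshold. The log2 fold change was then -0.54 for Tgfbr2, 0.61 for Eng and -0.44 for Smad5, near the values above, and 3.23 for Inhbb and 0.78 for Ltbp4. It was smaller for Tgfb2, at -0.22, and for Smad3, at -0.02 (adjusted p of the 7 from 0.272 to 0.996, edgeR).

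**Figure D3:**
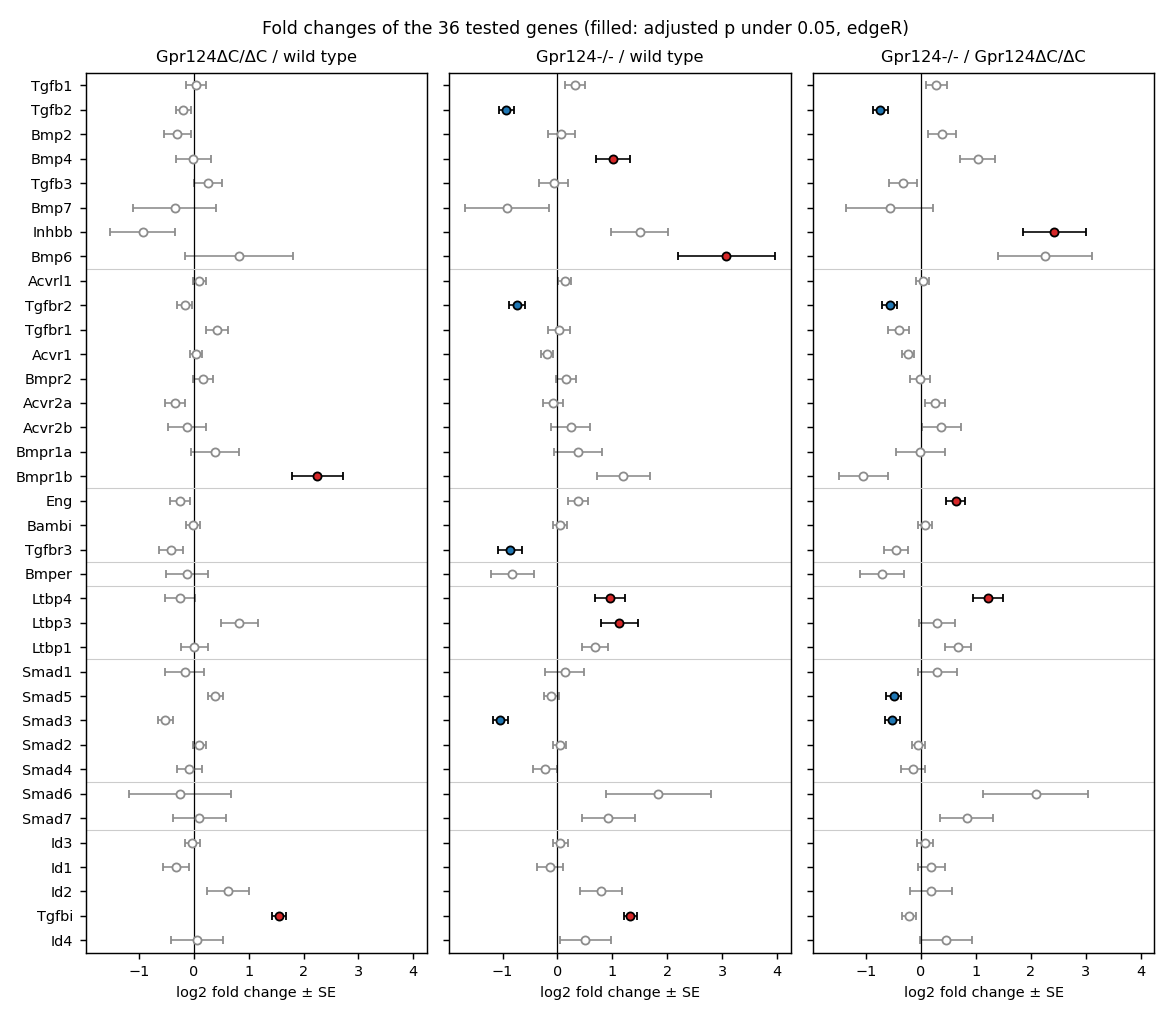
Log2 fold change with its standard error for the 36 tested genes in the 3 comparisons, with horizontal lines between the roles and filled points for an adjusted p under 0.05 (edgeR, red for higher and blue for lower). Tgfbi is filled in both comparisons with wild type, and Tgfb2, Tgfbr2 and Smad3 are filled in both comparisons of Gpr124-/-.

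The inhibitory SMADs and Smad1 were split by embryo letter. Smad6 (ENSMUSG00000036867, chr9:63953076-64022059, minus strand), 195081 bases from Smad3, was at 30.8, 24, 3.90 and 3.61 TPM in wild type, at 30.8, 17.0, 2.37 and 2.44 TPM in Gpr124ΔC/ΔC and at 12.6, 44.9, 82.9 and 93.9 TPM in Gpr124-/-. The J embryos of both genotypes were at 17.0 to 30.8 TPM and the K and L embryos at 2.37 to 3.90 TPM, while in Gpr124-/- the K embryo was lowest. Its log2 fold change in Gpr124-/- was 1.84 with an SE of 0.95 (adjusted p = 0.215, edgeR), and 1.65 with the embryo letter in the model (adjusted p = 0.0939). Smad7 was at 15.7, 16.5, 9.26 and 5.21 TPM in wild type, at 22.7, 16.9, 5.04 and 6.84 TPM in Gpr124ΔC/ΔC and at 24.3, 19.3, 23.0 and 26.5 TPM in Gpr124-/-. It did not overlap between wild type and Gpr124-/-, but its log2 fold change of 0.93 (SE 0.48, adjusted p = 0.221, edgeR) did not pass, and with the embryo letter in the model it was 1.35 (adjusted p = 0.0278). Smad1 was at 102 and 92.6 TPM in the J embryos of wild type and at 46.6 and 53.5 TPM in KE8 and LE6, against 72.8 to 92.5 TPM in Gpr124-/-. Its log2 fold change was 0.13 (SE 0.35, adjusted p = 0.848), or 0.94 (adjusted p = 0.0113) with the letter in the model (edgeR). Against Gpr124ΔC/ΔC it was 0.30 (SE 0.35, adjusted p = 0.658), or 1.18 (adjusted p = 0.0266) with the letter in the model (edgeR).

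Among the 8 wild-type and Gpr124ΔC/ΔC libraries, 4 J against 4 K and L, TPM did not overlap for 8 of the 36 genes. Acvr2b, Ltbp4, Smad1, Smad4, Smad6 and Smad7 were higher in J, and Tgfbr2 and Tgfbr3 were lower. Over all tested genes 18.7% did not overlap in this split, which is near the share of the 36. The letters K and M together hold all Gpr124-/- embryos, so that letter and genotype cannot be told apart for the M embryos.

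The Id genes, which BMP signaling induces within hours and which are used as its readout, did not pass the test in any comparison. Id1 was at 337 to 721 TPM in wild type, 334 to 525 TPM in Gpr124ΔC/ΔC and 413 to 625 TPM in Gpr124-/-. Id3 was at 831 to 1241, 882 to 1123 and 914 to 1309 TPM, and its log2 fold change in Gpr124-/- was 0.05 with an interval of 2 SE from -0.24 to 0.33. Id2 was at 163, 107, 212 and 69.9 TPM in wild type, at 270, 318, 139 and 146 TPM in Gpr124ΔC/ΔC and at 407, 193, 213 and 180 TPM in Gpr124-/-. Genotypes overlapped over all embryos but not among embryos of the same letter, where Gpr124ΔC/ΔC was at 2.18 times wild type in J and 2.04 times in L and KE4 was at 1.92 times KE8. The log2 fold change of Id2 was 0.62 in Gpr124ΔC/ΔC (SE 0.38, adjusted p = 0.554) and 0.79 in Gpr124-/- (SE 0.38, adjusted p = 0.184), and with the embryo letter in the model it was 1.02 (adjusted p = 0.000102) and 0.89 (adjusted p = 0.0196, edgeR).

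Of the 9 receptor genes tested, Tgfbr2 and Bmpr1b passed the test in at least 1 comparison and the others in none, with intervals of different width. Acvrl1 was at 174 to 234 TPM in wild type, 173 to 288 TPM in Gpr124ΔC/ΔC and 199 to 283 TPM in Gpr124-/-, with a log2 fold change in Gpr124-/- of 0.13 and an interval of 2 SE from -0.12 to 0.38. Bambi had 0.04 with an interval from -0.22 to 0.30, and the type II BMP receptor gene Bmpr2 0.15 with an interval from -0.20 to 0.51. The type I receptor gene of TGF-beta, Tgfbr1, was at 19.7 to 26.6 TPM in wild type and 15.7 to 32.2 TPM in Gpr124-/- (log2 fold change 0.02, SE 0.20, adjusted p = 0.966, edgeR). In Gpr124ΔC/ΔC it was at 20 to 44.9 TPM, with a log2 fold change of 0.42 against wild type (SE 0.20, adjusted p = 0.346, edgeR), and Gpr124-/- against Gpr124ΔC/ΔC gave -0.41 (SE 0.20, adjusted p = 0.241, edgeR). Tgfb1 was at 32.2 to 47.4 TPM in wild type and 42.2 to 53.3 TPM in Gpr124-/- (0.32, SE 0.19, adjusted p = 0.3, edgeR). Smad4, the partner of all signaling SMADs, was at 31.0 to 37.9 TPM in wild type and 24.5 to 36.4 TPM in Gpr124-/- (-0.23, SE 0.22, adjusted p = 0.542, edgeR).

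The remaining tested genes overlapped between all genotypes and passed no comparison. The activin and BMP receptor genes Acvr1, Acvr2a, Acvr2b and Bmpr1a had log2 fold changes in Gpr124-/- of -0.19 (SE 0.11), -0.08 (SE 0.18), 0.24 (SE 0.35) and 0.38 (SE 0.44). For Bmpr1a the interval of 2 SE ran from -0.49 to 1.26, and for Acvr2b from -0.46 to 0.95. Acvr1, a type I receptor for BMPs and activins, was at 17.6 to 21.7 TPM in wild type and 15 to 22.1 TPM in Gpr124-/-. Of the ligand genes, Tgfb3 was at 1.81 to 2.25 TPM in wild type and 1.47 to 2.37 TPM in Gpr124-/-, Bmp2 at 4.64 to 5.47 and 4.65 to 6.91 TPM, and Bmp7 at 0.303 to 2.44 and 0.55 to 1.06 TPM. Bmper, a secreted protein that binds BMPs, had a log2 fold change of -0.82 (SE 0.39, adjusted p = 0.174, edgeR), and Id4 one of 0.51 (SE 0.46, adjusted p = 0.516, edgeR).

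The 6 genes that were not tested, because too few libraries held enough reads, were Gdf10, Inhba, Fst, Nog, Grem1 and Smad9. None of them exceeded 21 reads in any library, the value of Fst in JE3. Smad9, the third BMP SMAD, had 4, 1, 1 and 0 reads in wild type, 0, 1, 0 and 1 reads in Gpr124ΔC/ΔC and 2, 9, 9 and 8 reads in Gpr124-/-. These counts were too low for a comparison.

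Beyond the 42 genes, 85 other genes of the pathway were listed, and 57 of them were tested. In Gpr124-/- 15 rose and 4 fell against wild type, with a median log2 fold change of 0.33, and in Gpr124ΔC/ΔC 3 rose and 3 fell, with a median of 0.07 (adjusted p under 0.05, edgeR). Of all tested genes 10.5% rose and 9.32% fell in Gpr124-/-, and 1.85% rose and 2.24% fell in Gpr124ΔC/ΔC. The medians over all tested genes were -0.01 and 0.01. In Gpr124-/- against Gpr124ΔC/ΔC 9 of the 57 passed the test, each with a higher level in Gpr124-/-, beside 8.82% of all tested genes in either direction.

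Several of these genes encode matrix proteins that store or activate the ligands. Fbn2, a fibrillin of the microfibrils that bind latent TGF-beta and BMPs, was at 1.38 to 2.49 TPM in wild type, at 4.81 to 7.21 TPM in Gpr124ΔC/ΔC and at 7.85 to 10.3 TPM in Gpr124-/-, without overlap. It rose by 1.59 in Gpr124ΔC/ΔC (SE 0.22, adjusted p = 0.00104) and by 2.18 in Gpr124-/- (SE 0.22, adjusted p = 1.47e-05) on the log2 scale (edgeR). Its paralog Fbn1 was at 2.24 to 3.95 TPM in wild type and 5.82 to 12.1 TPM in Gpr124-/- (log2 fold change 1.52, SE 0.23, adjusted p = 0.000455, edgeR), and with the embryo letter in the model it was 0.51 (adjusted p = 0.533). Thbs1, an activator of latent TGF-beta that platelets also carry, was at 48.3 to 113 TPM in wild type, at 112 TPM in KE4 and at 405 to 539 TPM in the M embryos (2.36, SE 0.42, adjusted p = 0.0014, edgeR), and it too lost its call with the letter in the model (0.62, adjusted p = 0.263).

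Among target genes, some rose and some fell. Ccn2, which encodes a matricellular growth factor, rose in Gpr124-/- from 62.5 to 108 TPM in wild type to 198 to 313 TPM (log2 fold change 1.66, SE 0.20, adjusted p = 6.27e-05, edgeR), and its log2 fold change was 1.01 with the embryo letter in the model (adjusted p = 0.0429). Cdkn2b, a cell-cycle inhibitor gene, fell in both mutants, from 12.9 to 19.9 TPM in wild type to 0.817 to 4.33 TPM in Gpr124ΔC/ΔC and 2.98 to 7.41 TPM in Gpr124-/-. Its log2 fold changes were -2.67 (SE 0.41, adjusted p = 0.00234) and -1.59 (SE 0.38, adjusted p = 0.0101, edgeR), and that of Gpr124-/- was -2.78 with the embryo letter in the model (adjusted p = 0.0246). Atoh8, a BMP target of endothelial cells, had a log2 fold change of 1.21 (SE 0.39, adjusted p = 0.0461, edgeR) and lost its call without any 1 of JE1, JE6, KE8, LE6, ME1, ME4 and ME5 (1.09 to 1.34, adjusted p = 0.0588 to 0.121, edgeR), and with the embryo letter in the model (1.16, adjusted p = 0.183).

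Among secreted modulators, Fstl1, a follistatin-like protein, was abundant, at 139 to 183 TPM in wild type, 206 to 316 TPM in Gpr124ΔC/ΔC and 323 to 392 TPM in Gpr124-/-, again without overlap. It rose by 0.68 in Gpr124ΔC/ΔC (SE 0.09, adjusted p = 0.000855) and by 1.07 in Gpr124-/- (SE 0.09, adjusted p = 3.73e-06) on the log2 scale (edgeR). Crim1, a membrane protein that binds BMPs, was at 10.8 to 16.8 TPM in wild type and 21.5 to 44.4 TPM in Gpr124-/- (1.26, SE 0.28, adjusted p = 0.00609, edgeR), and at 0.96 with the letter in the model it did not pass (adjusted p = 0.167). Sost, an inhibitor of WNT and BMP signals, was at 0 to 0.248 TPM in wild type and 2.34 to 4.68 TPM in Gpr124-/- (4.51, SE 0.70, adjusted p = 0.000548, edgeR). All 4 wild-type libraries together held 8 reads of Sost, and its fitted value ran from 1.96 by limma on log2(TPM + 1) to 7.82 with the embryo letter in the model, with the call kept in each.

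**Figure D4:**
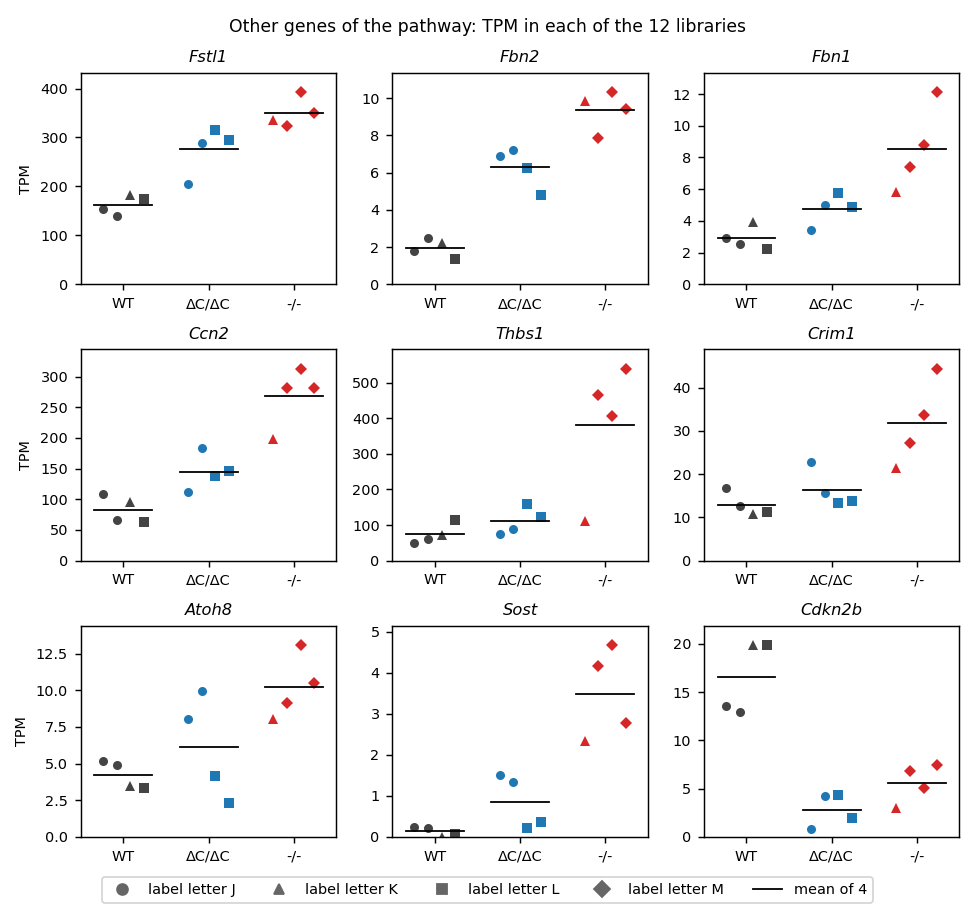
TPM of 9 other genes of the pathway in each of the 12 libraries, on linear axes that start at 0, with a horizontal line at the mean of each genotype and a marker shape for the embryo letter. Fbn2 and Fstl1 are higher in both mutants than in all wild-type libraries, Cdkn2b is lower in both, and in Thbs1 the K embryo of Gpr124-/-, at 112 TPM, lies within wild type.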

How the data were processed

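The authors sorted endothelial cells from forebrains at E15.5, amplified poly(A) RNA with SMART-Seq V4 and sequenced paired reads on an Illumina HiSeq instrument. The deposited counts are raw reads per gene and the deposited TPM express the same reads per length of gene, with an equal sum in every library. The submitters' processing notes name bcl2fastq 2.17 and the build mm10, and the aligner, the counter and the use of strand are not given in the sources used here. TPM recomputed from counts and lengths deviated by at most 0.00498% for values over 1 TPM. Symbols came from GENCODE vM21 for 49056 of 49315 identifiers.

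All 12 libraries entered 1 fit by genotype in edgeR 4.0.16 (R 4.3.3), with TMM factors of 0.946 to 1.04, filterByExpr at its count minimum of 10 (16637 genes kept) and Benjamini-Hochberg adjustment over all of these. SE is the absolute log2 fold change divided by the square root of F. TPM were compared by exact permutation, with adjustment over all tested genes, which replaced the planned adjustment over the 42. Alternatives used limma 3.58.1 and DESeq2 1.42.0. The steps were also run on simulated counts without a letter effect, in which only genes with a mean of at least 50 reads were changed. Those counts do not cover letter effects or genes with few reads. Embryos of a genotype were separate animals. The edgeR p-values use an estimate of the spread of each gene that is taken from all 12 libraries and moderated over genes. Without the letter in the model, they treat embryos of the same letter as independent. Genes named in the text were all 42, with full values for those past the test in any comparison, and, of the other pathway genes, those past both thresholds, at most 10 by lowest p. Members and lists were chosen with earlier results of these data known. Of the marker lists, mural, fibroblast and macrophage sums were at most 68.2, 98.8 and 127 TPM in any library, and neuronal sums at most 150 TPM.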

Additional observations from a re-analysis of the deposited data

Results flagged for a closer look

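In 8 of 126 groups of 4 libraries, taken over the 42 genes and 3 genotypes, 1 library stood apart from the other 3 by Dixon's test at its 95% critical value. Chance alone gives such libraries in about 5% of groups. In wild type these were Tgfb1 in JE6, at 47.4 TPM, and Id4 in JE1, at 4.41 TPM. In Gpr124ΔC/ΔC they were Inhba and Bmper in LE2, at 0.451 and 0.878 TPM. In Gpr124-/- they were Inhba in ME1, at 1.89 TPM, Smad2 in ME4, at 52.8 TPM, and Id1 and Id2 in KE4, at 625 and 407 TPM.

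Levels differed by the test of Gpr124-/- against Gpr124ΔC/ΔC for 7 of the 36 genes (adjusted p under 0.05, edgeR), beside 8.82% of all tested genes. The 2 groups of homozygotes came from separate intercrosses. The log2 differences were -0.74 for Tgfb2, -0.57 for Tgfbr2, -0.52 for Smad3, -0.50 for Smad5, 2.43 for Inhbb, 0.63 for Eng and 1.22 for Ltbp4. With the embryo letter in the model, none of the 7 was past the threshold, at -0.22 for Tgfb2, -0.54 for Tgfbr2, -0.02 for Smad3, -0.44 for Smad5, 3.23 for Inhbb, 0.61 for Eng and 0.78 for Ltbp4, and the mutants share no letter.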

How the results depend on the processing

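No pairing by replicate number was possible, because these numbers follow the order of deposit and pair no embryos. The embryo letters group embryos across genotypes, and the fits with the letter in the model stand in for a block. Of 30 fold changes past the threshold, 10 kept direction and call under all alternatives run, namely Tgfbi, Fstl1, Fbn2 and Cdkn2b in both mutants and Ccn2 and Sost in Gpr124-/-, and of 50 computed, 3 changed sign. With the embryo letter in the model, Bmp4 in Gpr124-/- was -0.25 and Tgfbi between the mutants 0.36. Smad1 in Gpr124-/- was -0.05 when KE8 was left out, -0.02 when LE6 was, and up to 0.31 when another library was.

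For Gpr124-/- against wild type, 3 genes were higher and 2 lower by limma on log2(TPM + 1) with no filter, 1 was lower with the letter in the model, and those past both thresholds were 3 with the letter, 3 by limma at either pseudocount and 2 by limma with no filter. DESeq2 called 7 higher. For Gpr124ΔC/ΔC against wild type, 1 was higher with a mean of at least 50 counts and by limma at either pseudocount and 4 with the letter, 1 was lower by DESeq2 and with the letter, and 1 was past both with a mean of at least 50 counts and in all 3 limma fits. Between the mutants, 1 was higher with a mean of at least 50 counts (Ltbp4), with the letter (Smad1, at 1.18) and by limma with no filter (Inhbb), 0 were lower with the letter and 1 in all 3 limma fits, and 1 was past both thresholds under each of these. Bmp6, Bmpr1b and Inhbb averaged 19.4, 17.4 and 23.1 reads, so the fit with a mean of at least 50 counts did not test them. The limma fits at either pseudocount kept genes with a mean of at least 1 TPM. They did not test Bmpr1b, at 0.521 TPM, or Inhbb, at 0.888 TPM. Other causes were not tested, and shares of all tested genes under these alternatives are not given here.

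Leaving out 1 library at a time gave 1 to 7 higher, 4 to 4 lower and 2 to 9 past both thresholds for Gpr124-/- against wild type. The ranges were 1 to 2, 0 to 1 and 1 to 2 for Gpr124ΔC/ΔC, and 0 to 4, 1 to 4 and 0 to 3 between the mutants. Genes with few reads, such as Bmp6, Bmpr1b and Inhbb, have wide errors, and a missed call does not show equal levels.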
